A study of Mus musculus with 36 samples.

Results

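Na,K-ATPase, the sodium pump of animal cells, was followed here through 6 genes: the β subunit genes Atp1b1, Atp1b2 and Atp1b3 and the FXYD regulator genes Fxyd1, Fxyd6 and Fxyd7. They were chosen by name, the deposited transcripts being matched to genes by position, and they are 6 of 25453 genes with a transcript and 6 of the 13578 genes tested. The 6 genes and all gene lists below were chosen with earlier results of these data known. Counts from them set beside a share of all genes are therefore descriptions. All 6 passed the filter on low values (at least 1 FPKM in at least 2 libraries). The deposited unit, FPKM, is a fragment count scaled to transcript length and to the fragments mapped in a library.

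RNA-seq was done on 6 cell populations of the mouse brain, labelled A, B, C, D, E and Neg, each taken from olfactory bulb, cortex and brainstem and sequenced as 2 libraries, 36 in all. The labels do not number these libraries, so replicate 1 and 2 below are names given in deposit order and pair nothing across groups. All groups share the strain C57/Bl6, the tissue brain and the cell type label astrocyte, and none carries a stated treatment, allele or age. Neg is not explained in the labels, nor is the way the populations were separated, any pooling of animals, or the origin of paired libraries in separate animals. The p-values below therefore rest on library-to-library spread, part or all of which may be technical.

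The pump exports sodium and imports potassium at the cost of ATP. Its α subunit does the transport, its β subunit is a glycoprotein that the α subunit needs to fold and to reach the cell surface, and FXYD proteins are small membrane proteins that tune its affinity for ions. In the brain Atp1b2, first described as the adhesion molecule on glia, is known from astrocytes, Atp1b1 from neurons and Atp1b3 from many cell types. Fxyd1 encodes phospholemman, Fxyd6 encodes phosphohippolin, and Fxyd7 encodes a FXYD protein described in rodents as largely restricted to the brain.

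The genes lie on 4 mouse chromosomes in GRCm38, the assembly whose coordinates mm10 shares. Atp1b1 occupies chr1:164437109-164458355 on the minus strand and overlaps the protein-coding gene Nme7. Atp1b2 occupies chr11:69599736-69605942 and Atp1b3 chr9:96332655-96364442, both on the minus strand. Fxyd6 occupies chr9:45370185-45396159 on the plus strand. Fxyd1 at chr7:31051678-31057199 and Fxyd7 at chr7:31042513-31051467 are neighbours on the minus strand, 210 bases apart, and Fxyd7 lies 31 bases from Fxyd5. The library chemistry did not mark the strand, so reads at these edges and in the overlap with Nme7 cannot be told apart by strand.

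Promoter windows of RefSeq (GRCm38.p6), the 250 bases before a start site, matched Atp1b1, Atp1b3, Fxyd1 and Fxyd6. The windows of the 3 of these whose levels were called different between A to E and Neg are printed 5′ to 3′ on the gene's strand, with capitals marking matches to a GC box (GGGCGG) or a CCAAT box (CCAAT) on either strand. They are chr1:164458356-164458605 for Atp1b1, chr7:31054854-31055103 for Fxyd1 and chr9:45369935-45370184 for Fxyd6.
Atp1b1: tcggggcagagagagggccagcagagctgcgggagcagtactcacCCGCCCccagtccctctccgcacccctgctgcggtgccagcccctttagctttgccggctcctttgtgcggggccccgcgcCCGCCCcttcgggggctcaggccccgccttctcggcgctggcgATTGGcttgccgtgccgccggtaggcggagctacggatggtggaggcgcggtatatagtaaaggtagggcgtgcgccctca
Fxyd1: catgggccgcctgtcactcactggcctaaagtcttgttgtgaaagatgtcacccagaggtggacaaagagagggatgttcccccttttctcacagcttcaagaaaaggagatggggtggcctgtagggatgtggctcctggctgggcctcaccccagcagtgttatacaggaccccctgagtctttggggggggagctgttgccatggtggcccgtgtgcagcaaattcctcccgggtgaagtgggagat
Fxyd6: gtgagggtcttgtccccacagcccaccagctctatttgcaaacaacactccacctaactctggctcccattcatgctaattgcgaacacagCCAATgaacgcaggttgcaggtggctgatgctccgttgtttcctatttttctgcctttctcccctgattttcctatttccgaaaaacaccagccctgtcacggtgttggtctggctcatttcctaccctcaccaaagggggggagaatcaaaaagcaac

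The Atp1b1 window was the richest of these in G and C, at 70.4% with 24 CG pairs. The Fxyd1 window held 57.2% with 3 CG pairs, and the Fxyd6 window 50.4% with 5, where the median over 32851 RefSeq windows was 52.4% with 6. Atp1b1 held 2 GC boxes and 1 CCAAT box, which did not overlap one another, Fxyd6 held 1 CCAAT box, and Fxyd1 held neither. A GC box was present in 32.7% of all windows and a CCAAT box in 33.8%. A TATA box (TATAAA on either strand, in 12.4% of windows) had no match in the 3 windows.

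The libraries themselves differed. From 2104 to 10357 genes reached 1 FPKM, fewest in brainstem Neg, and 8 libraries had fewer than 5000. Depth, in relative units of coverage over FPKM, was lowest at 0.0695 in brainstem E replicate 1 and at 0.315 in E replicate 1 of the olfactory bulb, against 1.16 to 4.08 in the other libraries. The libraries labelled brainstem D replicate 2 and cortex E replicate 2 stood apart from their regions: their 7 olfactory ensheathing glia markers summed to 4785 and 2455 FPKM, where the median was 2664 FPKM in olfactory bulb libraries of A to E and 271 FPKM in cortical ones. Library numbers in the titles fall into 2 separate series: all 6 D and all 6 E libraries stand in the second with 2 of A and 1 of B, and all Neg and C libraries in the first. What the series stand for is not stated, and E, D, C or Neg cannot be told apart from them except through A and B. Markers of astrocytes, neurons, oligodendrocytes and microglia were all detected in every population, although the label of each is astrocyte. The astrocyte list (16 genes) summed to a median of 1608 FPKM in A to E and 386 FPKM in Neg, and the neuron list (15 genes) to a median of 357 FPKM in A to E and 548 FPKM in Neg. The oligodendrocyte list (10 genes) lay above both, at a median of 2652 FPKM in A to E and 4178 FPKM in Neg. Choroid plexus and ependyma markers (7 genes) had a median of 448 FPKM in A to E and 12.6 FPKM in Neg. In C their median was 2044 FPKM and their highest sum 23814 FPKM.

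Atp1b2 was the most abundant of the 6 genes and, on the deposited scale, the one that separated A to E from Neg most cleanly. Its lowest, median and highest levels over the 30 libraries of A to E were 61.3, 360 and 1040 FPKM, against 20.7, 71.1 and 79.7 FPKM in the 6 Neg libraries. In 29 of 30 libraries of A to E it lay above every Neg library, the exception being olfactory bulb E replicate 1 with 61.3 FPKM. This count holds for the deposited scale only and was not made on rescaled values. Summed nuclear FPKM was 24314 and 24130 in brainstem Neg, for example, against 163132 in brainstem C replicate 1. The difference in log2(FPKM + 1), A to E minus Neg, was 2.62 ± 0.34 (SE, limma, adjusted p = 2.28e-05). With FPKM rescaled to a common sum per library it was 1.47 (limma, adjusted p = 2.58e-05). Within regions, differences of the mean log2 levels were 1.76 in the olfactory bulb, 3.13 in the cortex and 2.96 in the brainstem. In the first number series alone, where A, B and C stood against Neg, it was 3.23 (limma, adjusted p = 4.4e-07).

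Levels of Atp1b2 were highest in C. Its lowest, median and highest levels were 387, 711 and 1040 FPKM in C. They were 332, 531 and 878 FPKM in B, 106, 285 and 722 FPKM in A, 164, 232 and 814 FPKM in D, and 61.3, 202 and 224 FPKM in E. The ranges of all lettered populations overlapped those of their neighbours in this order, and only the brainstem C libraries, at 1040 and 978 FPKM, lay above all libraries of A, B, D and E. C minus the other 4 lettered populations differed by 1.22 ± 0.34 on the log2 scale (limma, adjusted p = 0.0330). This call was lost when any 1 of 5 of the 6 C libraries was left out (adjusted p between 0.0674 and 0.161), after quantile normalization, where the difference was 0.40, and in the first number series alone, where C minus A and B was 0.55 (adjusted p = 0.557).

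**Figure D1:**
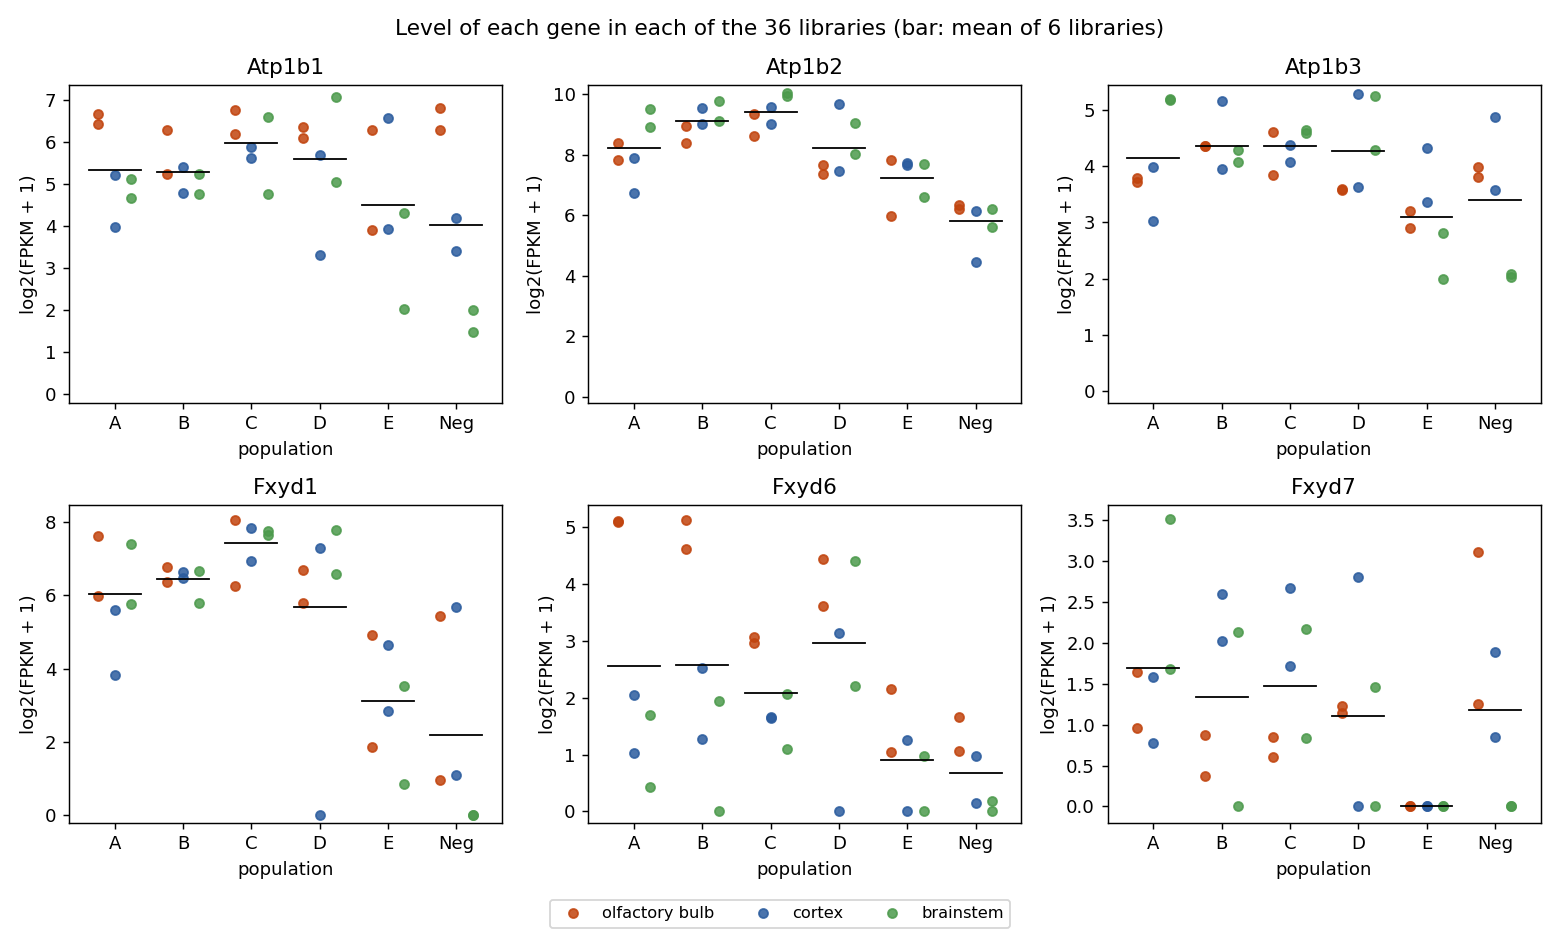
Level of each of the 6 genes as log2(FPKM + 1) (vertical axis) in the 36 libraries by population (horizontal axis), coloured by region, with a bar at the mean of the 6 libraries of a population. On this deposited scale, Atp1b2 in A to E lies above Neg in 29 of 30 libraries, Fxyd6 is highest in olfactory bulb libraries, and Fxyd7 is at 0 in all 6 E libraries.

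Atp1b1, the β gene known from neurons, had its highest median in the olfactory bulb. Over A to E its lowest, median and highest levels were 13.9, 76.8 and 106 FPKM in the olfactory bulb, 8.92, 38.6 and 93.4 FPKM in the cortex and 3.04, 29.0 and 133 FPKM in the brainstem. The highest brainstem value and the highest cortical value came from brainstem D replicate 2 and cortex E replicate 2, the libraries with high ensheathing glia markers. Without this pair, the cortical and brainstem libraries of A to E reached at most 95.0 FPKM. Over 36 libraries, which share their scale and depth, Atp1b1 had r = 0.76 with the mean of the olfactory ensheathing glia markers, 0.68 with the neuroblast markers and 0.59 with the neuron markers (Pearson). After quantile normalization these were 0.74, 0.70 and 0.35, and the part of these lists was not tested.

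In Neg the regions lay further apart. Atp1b1 stood at 76.8 and 110 FPKM in olfactory bulb Neg, at 17.3 and 9.58 FPKM in cortex Neg and at 3.01 and 1.8 FPKM in brainstem Neg. All 10 brainstem libraries of A to E lay above both brainstem Neg libraries, whereas none of the 10 olfactory bulb libraries lay above both olfactory bulb Neg libraries. Within-region differences of the mean log2 levels, A to E minus Neg, were -0.53 in the olfactory bulb, 1.23 in the cortex and 3.21 in the brainstem. The test of whether population differences depended on region did not call Atp1b1 (limma F test, adjusted p = 0.719). Over all regions, A to E minus Neg was 1.30 ± 0.43 (limma, adjusted p = 0.0319). In the first number series alone it was 1.57 (adjusted p = 0.000251), and with the number series as a covariate it was 1.51 and not called (adjusted p = 0.0513). The call was lost when any 1 of 5 of the 6 Neg libraries was left out (adjusted p between 0.0590 and 0.141), and after quantile normalization the difference was 0.15. The regional differences over A to E, 0.98 ± 0.43 for olfactory bulb minus cortex and -1.06 ± 0.43 for brainstem minus olfactory bulb, missed the threshold (limma, adjusted p = 0.251 and 0.159).

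Atp1b3, the β gene known from many cell types, was measured by 2 deposited transcripts, and its place among the β genes turned on which were counted. The full-length one, of 1831 bases, is the one summed here. A 421-base entry at the 3′ end of the gene, left out because it covers too little of the span, had a median of 50.3 FPKM in A to E, against 16.5 FPKM in Neg. Without it Atp1b3 was the least abundant β gene in 24 of 30 libraries of A to E and in 2 of 6 of Neg. With it the count in A to E was 10 of 30, Atp1b1 being the lowest in the other 20. The higher library of a group exceeded the lower by a median of 1.26 times for Atp1b3 without the short entry and 2.08 times with it, against 1.53 times for Atp1b2 and 1.74 times for Atp1b1.

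From the full-length transcript, the lowest, median and highest levels of Atp1b3 were 2.98, 15.8 and 37.7 FPKM in A to E, against 3.11, 12 and 28.3 FPKM in Neg. With the short entry, a choice made after seeing the data, they were 10.5, 66.9 and 173 FPKM in A to E, against 10.9, 23.2 and 53.8 FPKM in Neg. By the full-length transcript, 24 of the 30 libraries of A to E lay within the range of Neg, and the difference of 0.65 ± 0.31 was not called (limma, adjusted p = 0.116). This difference turned to -0.42 after quantile normalization, and in the first number series alone it was 0.93 and called (limma, adjusted p = 0.00449). It was also called with array quality weights, at the same difference (adjusted p = 0.0318), and with the short entry, at 1.17 (adjusted p = 0.0336). By the full-length transcript, brainstem Neg was low, at 3.23 and 3.11 FPKM, and brainstem A was high, at 34.9 and 35.4 FPKM.

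The β genes were then set against each other within each library, which removes the scale of the library. FPKM is scaled to transcript length, so levels of different genes can be compared, but the shares move with the short Atp1b3 entry, which the first values leave out. Atp1b2 made up a median of 87.0% of the summed β FPKM in A to E (lowest 63.1%, highest 95.5%) and 55.4% in Neg (lowest 36.9%, highest 92.1%). Atp1b1 made up a median of 18.4% in the olfactory bulb libraries of A to E, 6.48% in the cortical ones and 4.91% in the brainstem ones. In Neg its share was 44.8% and 56.4% in the olfactory bulb, 15% and 23.3% in the cortex, and 3.82% and 3.45% in the brainstem. In brainstem Neg Atp1b2 held 92.1% and 90.6%, against a median of 90.7% in the lettered brainstem libraries. Atp1b3 held 24.5% and 26.5% in cortex Neg. With the short entry counted, Atp1b2 made up a median of 77.6% in A to E and 49.9% in Neg, Atp1b3 12.95% in A to E and 23.0% in Neg, and Atp1b1 7.75% in A to E and 17.8% in Neg. In brainstem Neg Atp1b2 then held 77.3% and 67.5%, against a median of 83.9% in the lettered brainstem libraries. No p is given for these shares, which are descriptions.

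**Figure D2:**
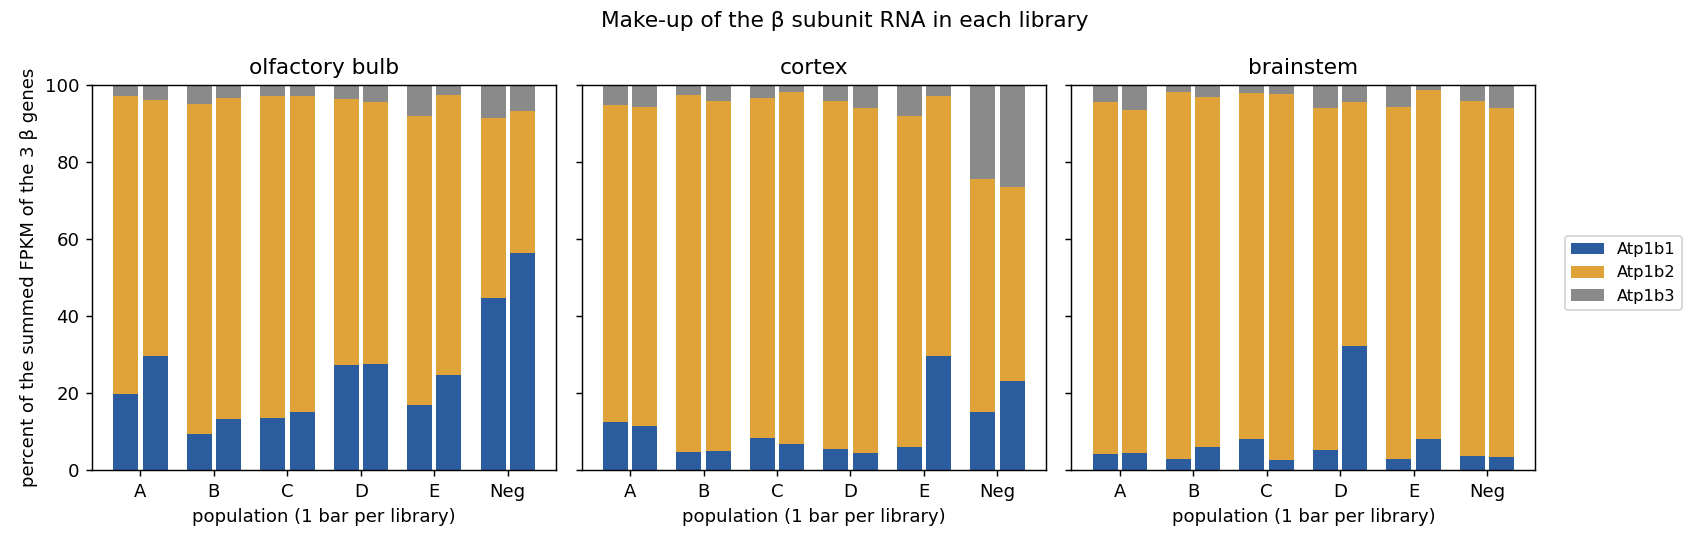
Share of Atp1b1, Atp1b2 and Atp1b3 in the summed FPKM of the 3 β genes, without the short Atp1b3 entry (vertical axis, percent), 1 bar per library, by population (horizontal axis) and region (panels). Atp1b1 takes 44.8% and 56.4% in olfactory bulb Neg, and 29.7% in cortex E replicate 2 and 32.4% in brainstem D replicate 2, above their partner libraries at 6.15% and 5.30%.

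Fxyd1 encodes a target of protein kinases in heart and muscle. Among the FXYD regulators it was the most abundant by median in A to E. Its lowest, median and highest levels were 0, 84.8 and 267 FPKM in A to E, against 0, 1.04 and 50.2 FPKM in Neg. Of the 30 libraries of A to E, 21 lay above every Neg library. The Neg libraries of a group disagreed: Fxyd1 was at 42.4 and 0.955 FPKM in the olfactory bulb and at 50.2 and 1.13 FPKM in the cortex, and was listed at 0 in both brainstem Neg libraries. A to E minus Neg was 3.55 ± 0.71 on the log2 scale (limma, adjusted p = 0.00151). After quantile normalization it was 2.95 (adjusted p = 0.00503), and in the first number series alone 4.68 (adjusted p = 9.83e-06). Without the 8 libraries with fewer than 5000 genes it was 1.79 and was not called. That step removes brainstem Neg and cortex Neg replicate 2, leaving cortex Neg replicate 1, at 50.2 FPKM, alone in its group. It also removes lettered libraries, among them both of brainstem E.

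Fxyd1 was high in C and low in E. Its lowest, median and highest levels were 75.0, 208 and 267 FPKM in C and 0.812, 8.34 and 29.0 FPKM in E. All C libraries stand in the first number series and all E libraries in the second. The levels were 0, 98.4 and 221 FPKM in D, 54.8, 93.3 and 109 FPKM in B and 13.2, 57.8 and 195 FPKM in A. The value of 0 in D belonged to cortex D replicate 2, whose partner had 157 FPKM and which had 2999 genes at 1 FPKM. C minus the other 4 lettered populations was 2.10 ± 0.72 and missed the threshold (limma, adjusted p = 0.0654). With the number series as a covariate it was 1.20 (limma, adjusted p = 0.979). In the first number series alone, C minus A and B was 0.82.

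The deposited transcripts of Fxyd1 begin at 3 sites, at positions 31055656, 31054853 and 31053122 of chromosome 7. In the 27 libraries of A to E with at least 5 FPKM, the most upstream site held a median of 73.5% of the FPKM and the middle site 26.5%. The printed Fxyd1 window abuts the middle site and so lies inside the gene. The middle site held a median of 48.6% in the brainstem, 19.2% in the cortex and 18.9% in the olfactory bulb, but its share ran from 0% to 100% between brainstem libraries. Transcripts that share most exons are apportioned by estimation, so this split is less certain than the sum.

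Fxyd6, known from the hippocampus and other brain regions, was the 1 gene of the 6 called between regions. Over A to E its lowest, median and highest levels were 1.07, 15.9 and 34.0 FPKM in the olfactory bulb, 0, 1.77 and 7.82 FPKM in the cortex and 0, 1.68 and 20.2 FPKM in the brainstem. Of the 10 olfactory bulb libraries, 6 lay above all cortical ones. The brainstem maximum was brainstem D replicate 2, and the next brainstem library had 3.61 FPKM. Over A to E, olfactory bulb minus cortex was 2.26 ± 0.39 (limma, adjusted p = 0.000392), and brainstem minus olfactory bulb was -2.24 ± 0.39 (limma, adjusted p = 0.000529). Both calls held under every alternative run, including each of the 36 fits without 1 library. Brainstem and cortex did not differ detectably, at 0.03 ± 0.39 for brainstem minus cortex (limma, adjusted p = 0.995).

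Within the olfactory bulb Fxyd6 stood at 33 and 33.2 FPKM in A, 23.5 and 34.0 FPKM in B, 20.7 and 11.1 FPKM in D, 7.38 and 6.77 FPKM in C, 1.07 and 3.42 FPKM in E and 2.15 and 1.09 FPKM in Neg. The libraries of A and B lay above those of every other population of the region. Over all regions, A to E minus Neg was 1.55 ± 0.39 (limma, adjusted p = 0.00764), and 18 of 30 libraries of A to E lay above every Neg library. In the first number series alone it was 1.97 (adjusted p = 6.7e-06), and without cortex Neg replicate 2 the adjusted p was 0.0595. The call was also lost with FPKM rescaled to a common sum per library, at 1.74 (adjusted p = 0.267), and when the 8 libraries under 5000 genes were left out, at 1.69 (adjusted p = 0.0839).

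Markers of olfactory ensheathing glia, the glia that wrap olfactory axons, moved with Fxyd6. The 7 markers summed to 725 to 4210 FPKM in the olfactory bulb libraries of A to E, against 107 to 2455 FPKM in the cortical ones and 256 to 4785 FPKM in the brainstem ones. In olfactory bulb minus cortex 5 of the 7 were called higher, where 3.08% of all genes were. Fxyd6 had r = 0.84 (Pearson) and 0.79 (Spearman) with their mean over 36 libraries, which share their scale and depth. After quantile normalization these were 0.79 and 0.73. In olfactory bulb Neg the 7 markers summed to 787 and 830 FPKM, while Fxyd6 was at 2.15 and 1.09 FPKM. Of 7 neuroblast markers, 4 were called higher in olfactory bulb minus cortex. The 7 summed to 13.7 to 68.1 FPKM in the olfactory bulb libraries of A to E and 1.09 to 21.9 FPKM in the cortical ones. Their part in the result was not tested. In bulk RNA, fewer cells of a type and less RNA per cell cannot be told apart.

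**Figure D3:**
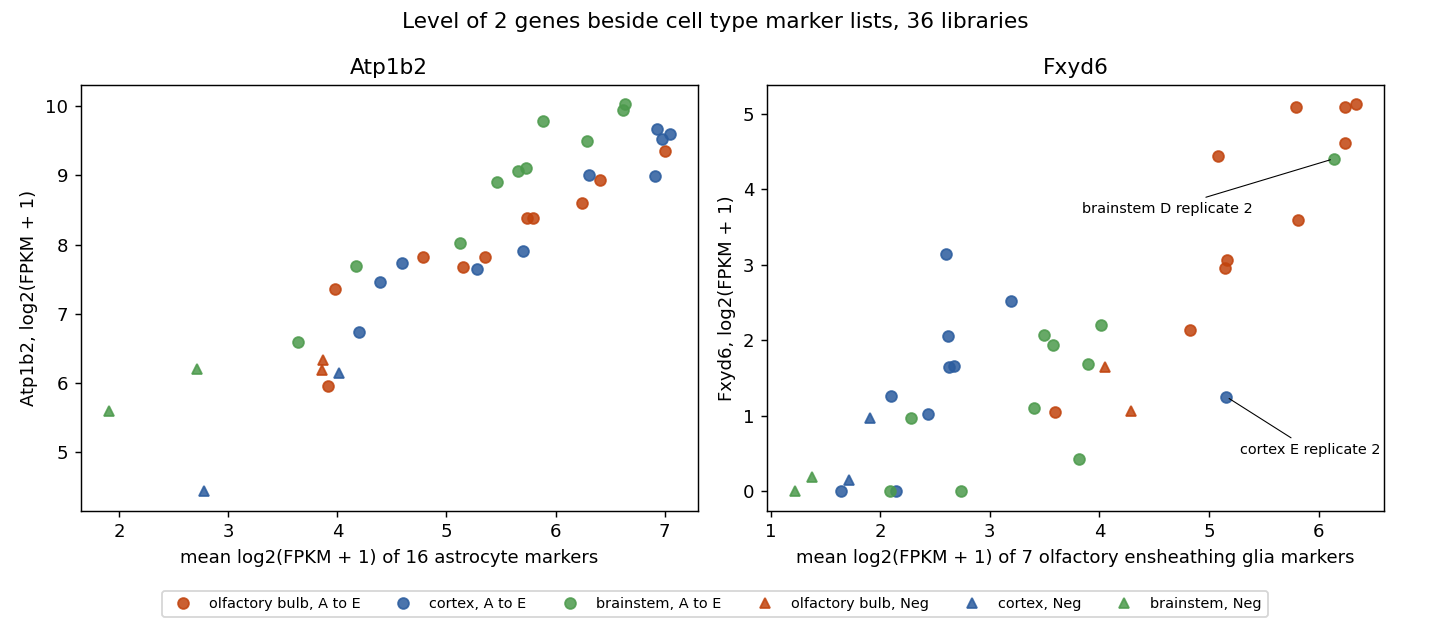
Levels of Atp1b2 and Fxyd6 as log2(FPKM + 1) (vertical axes) beside the mean log2(FPKM + 1) of 16 astrocyte markers and 7 olfactory ensheathing glia markers (horizontal axes) in 36 libraries, with Neg as triangles. Brainstem D replicate 2 lies among the olfactory bulb libraries in both Fxyd6 and the markers. Cortex E replicate 2 lies among them in the markers. Its 1.39 FPKM of Fxyd6 lies between the olfactory bulb E libraries, at 1.07 and 3.42 FPKM, and also within the cortical range.

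Fxyd7, a brain FXYD gene, was low in most libraries. It was listed at 0 in 11 of 36 libraries and reached 1 FPKM in 17. Its lowest, median and highest levels were 0, 0.885 and 10.4 FPKM in A to E and 0, 1.08 and 7.62 FPKM in Neg. The highest values were 10.4 FPKM in brainstem A replicate 1 and 7.62 FPKM in olfactory bulb Neg replicate 2, and all 6 E libraries were at 0. A to E minus Neg was -0.06 ± 0.36 (limma, adjusted p = 0.901), and 29 of 30 libraries of A to E lay within the range of Neg. In the first number series alone the difference was 0.58 and was not called (adjusted p = 0.0964).

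Shares were taken of the summed FPKM of Fxyd1, Fxyd6 and Fxyd7. Fxyd5 is outside this sum and exceeded Fxyd1 in brainstem B replicate 2, for example, at 157 against 54.8 FPKM. Of the 3 genes in the sum, Fxyd1 dominated in A to E. In the 27 libraries of A to E with at least 5 FPKM over the 3 genes, it held a median of 91.9% (lowest 64.6%, highest 100%), Fxyd6 4.58% and Fxyd7 0.976%. Fxyd6 held a median of 16.6% in the olfactory bulb libraries, 4.36% in the cortical ones and 1.44% in the brainstem ones. Only 3 Neg libraries reached that minimum, and in olfactory bulb Neg replicate 2 Fxyd7 held 78.8%.

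Set against the whole transcriptome, A to E minus Neg called 4 of the 6 genes, where 20.4% of the 13578 genes tested were called and 20.2% were higher. The 4 were Fxyd1, Atp1b2, Fxyd6 and Atp1b1, all higher in A to E. The 6 genes and the astrocyte list were chosen with earlier results of these data known, so the counts here are descriptions. The median difference was 0.50 over all genes tested and 1.43 over the 6 genes. Quantile normalization brought the median of all genes to 0.0034 and left Atp1b2 at 1.44 (adjusted p = 0.00011), Fxyd1 at 2.95 and Fxyd6 at 1.01 (adjusted p = 0.0386). All 16 astrocyte markers were called higher in A to E with a median difference of 2.27, and the part of this list in the result was not tested. Atp1b2 had r = 0.93 (Pearson) and 0.92 (Spearman) with the mean of the list over 36 libraries. After quantile normalization these were 0.75 and 0.74. With the neuron list the Pearson r of Atp1b2 was -0.13 on the deposited scale and -0.84 after quantile normalization.

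E minus the other 4 lettered populations called 5 of the 6 genes, all lower in E, where 42.6% of all genes were called and 42.5% were lower. The differences were -3.29 ± 0.72 for Fxyd1 (limma, adjusted p = 0.00138), -1.64 ± 0.39 for Fxyd6 (0.00260), -1.50 ± 0.34 for Atp1b2 (0.00190), -1.40 ± 0.37 for Fxyd7 (0.00500) and -1.18 ± 0.31 for Atp1b3 (0.00508). The median over all genes was itself -0.66, and the E libraries had the fewest genes of the lettered populations by median. After quantile normalization, which moved that median to 0.06, Fxyd1 at -2.15 was the remaining call (adjusted p = 0.0407). With FPKM rescaled to a common sum the remaining call was instead Fxyd7, at -3.72 (adjusted p = 0.00238), and Fxyd1 was at -2.19 (adjusted p = 0.0892). Fxyd7 was listed at 0 in all 6 E libraries, so the size of its difference depends on the scale of the values and on the pseudocount. With the number series as a covariate none of the 5 was called, Fxyd1 being at -2.40 (adjusted p = 0.259) and Atp1b2 at -0.99 (adjusted p = 0.332). E has no library in the first series. Atp1b1 was at -1.04 ± 0.44 and missed the threshold (adjusted p = 0.0535).

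In C minus the other 4, Atp1b2 alone of the 6 was called, where 7.52% of all genes were and 7.51% were higher. No gene of the 6 was called in A, where limma called no gene at all and 480 had an unadjusted p under 0.05, none of them among the 6. In B, where 15.8% of genes were called, and in D, where 0.103% were, none of the 6 was called, and at an unadjusted p under 0.05 the count was 1 in each, Atp1b2 in B and Fxyd6 in D. Between regions, Fxyd6 was the 1 gene of 6 called in olfactory bulb minus cortex, where 3.73% of genes were called and 3.08% were higher, and in brainstem minus olfactory bulb, where 5.19% were called and 4.19% were lower. At an unadjusted p under 0.05 the counts were 2, with Atp1b1, and 3, with Atp1b1 and Atp1b2. Brainstem minus cortex called none of the 6, also at an unadjusted p under 0.05, where 1.75% of all genes were called. The interaction of population and region called none of the 6 and 0.0147% of all genes, and Atp1b3 had an unadjusted p under 0.05.

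The differences not yet given were these, none of them called. For brainstem minus olfactory bulb, Atp1b2 was at 0.83 ± 0.34 (limma, adjusted p = 0.161), Atp1b3 at 0.43 ± 0.31, Fxyd7 at 0.41 ± 0.36 and Fxyd1 at -0.05 ± 0.71. Atp1b2 was called there with FPKM rescaled (0.76, adjusted p = 0.00916), after quantile normalization (0.64, adjusted p = 0.0498) and when the 8 libraries under 5000 genes were left out (0.98, adjusted p = 0.0281). Atp1b1 was called there with FPKM rescaled (-1.18, adjusted p = 0.0415) and Fxyd7, higher in the brainstem, in the first number series alone (adjusted p = 0.0461). For olfactory bulb minus cortex, Fxyd1 was at 0.82 ± 0.71, Fxyd7 at -0.65 ± 0.36, Atp1b2 at -0.40 ± 0.34 and Atp1b3 at -0.32 ± 0.31. For brainstem minus cortex, Fxyd1 was at 0.77 ± 0.71, Atp1b2 at 0.43 ± 0.34, Fxyd7 at -0.24 ± 0.36, Atp1b3 at 0.11 ± 0.31 and Atp1b1 at -0.08 ± 0.43.

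Among the lettered populations, each against the other 4, Fxyd7 was at 0.71 ± 0.37 in A, Fxyd6 at 0.43 ± 0.39, Fxyd1 at 0.36 ± 0.72, Atp1b2 at -0.29 ± 0.34, Atp1b3 at 0.12 ± 0.31 and Atp1b1 at 0.0078 ± 0.44. In B, Fxyd1 was at 0.89 ± 0.72, Atp1b2 at 0.85 ± 0.34 (limma, adjusted p = 0.0890), Fxyd6 at 0.45 ± 0.39, Atp1b3 at 0.40 ± 0.31, Fxyd7 at 0.26 ± 0.37 and Atp1b1 at -0.06 ± 0.44. In C, Atp1b1 was at 0.78 ± 0.44, Fxyd7 at 0.44 ± 0.37, Atp1b3 at 0.38 ± 0.31 and Fxyd6 at -0.17 ± 0.39. In D, Fxyd6 was at 0.93 ± 0.39 (limma, adjusted p = 0.492), Atp1b1 at 0.32 ± 0.44, Atp1b2 at -0.29 ± 0.34, Atp1b3 at 0.28 ± 0.31, Fxyd1 at -0.06 ± 0.72 and Fxyd7 at -0.02 ± 0.37.

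**Figure D4:**
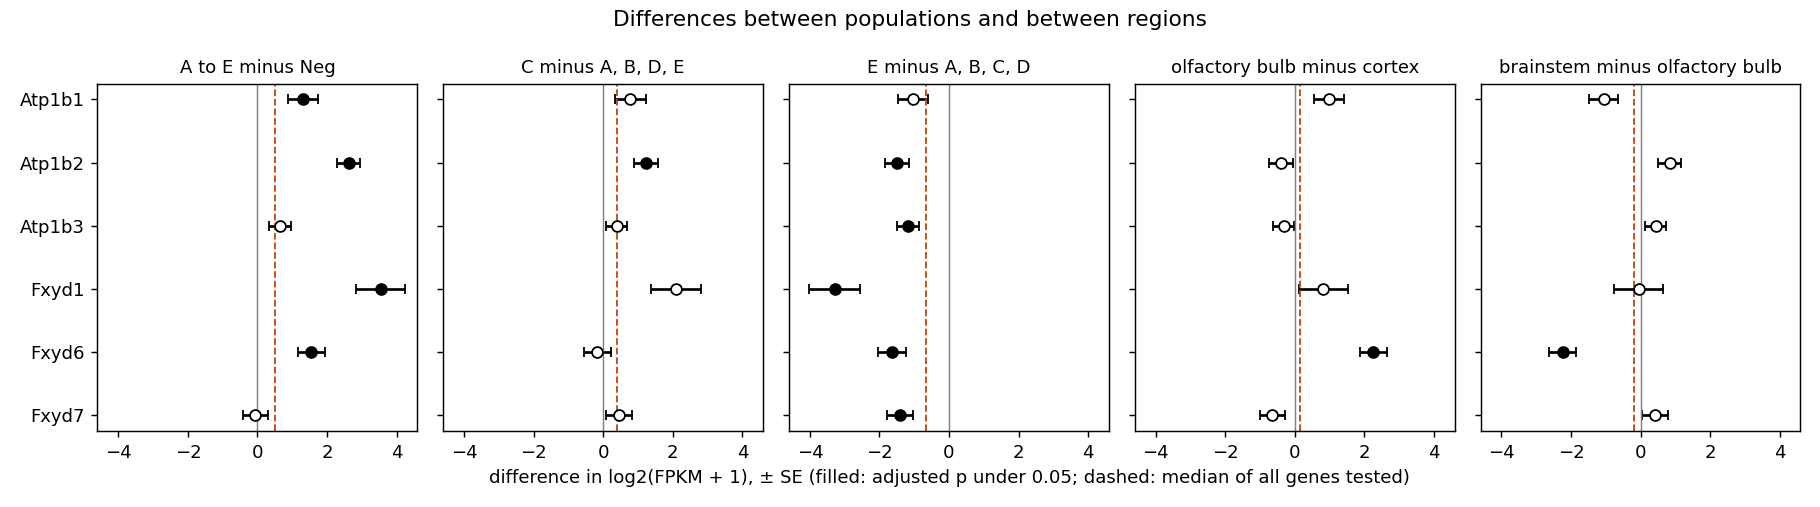
Difference in log2(FPKM + 1) with its SE (horizontal axes) for the 6 genes (vertical axis) in 5 comparisons, filled where called, with a dashed line at the median of all 13578 genes tested. Fxyd1 and Atp1b2 stand furthest above that median in A to E minus Neg, and Fxyd6 stands apart in both regional comparisons.

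Of the 6 other pump and FXYD genes listed, 4 passed the filter, Fxyd2, Fxyd3, Fxyd4 and Fxyd5, and Atp1b4 and Atp1a4 did not. Fxyd5 was not called between A to E and Neg, at 0.47 ± 0.50 (limma, adjusted p = 0.463), nor did it pass at an unadjusted p under 0.05. Fxyd2, Fxyd3 and Fxyd4 reached 1 FPKM in 2, 5 and 2 of the 30 libraries of A to E and in 0 of Neg. Such low genes could hardly be called, and nothing is read from the lack of a call. Their differences, given as descriptions, were 0.20 ± 0.18 for Fxyd2, 0.35 ± 0.32 for Fxyd3 and 0.10 ± 0.16 for Fxyd4. In E, where 42.5% of all genes were lower, Fxyd5 was lower, at -1.27 ± 0.51 (limma, adjusted p = 0.0453).

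Fxyd5, which encodes dysadherin, was higher in B than in the other lettered populations by 2.60 ± 0.51 (limma, adjusted p = 0.00063), with 5.47, 13.1 and 157 FPKM as its lowest, median and highest levels in B and 157 FPKM in brainstem B replicate 2. Microglial markers (11 of 11 detected) summed to 808 to 1399 FPKM in B and to at most 638.5 FPKM in the other lettered populations, and their part was not tested. Fxyd4 was at 1.31 FPKM in olfactory bulb B replicate 2 and 2.43 FPKM in brainstem B replicate 1 and listed at 0 in the other 34 libraries. It passed the filter only through this pair, so its difference in B (0.50 ± 0.16) is a description and no call is read from it. Fxyd5 was also higher in the brainstem than in the olfactory bulb, by 2.21 ± 0.50 (adjusted p = 0.00664). Fxyd2 and Fxyd3, at most 2.28 and 8.74 FPKM, were called in no comparison, from which nothing is read.

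Of 10 genes whose products partner the pump or stand near it at astrocyte membranes, 9 were tested and 5 were higher in A to E than in Neg and none lower, where 20.2% of all genes were higher. This list and the transport list below were chosen with earlier results of these data known, so their counts are descriptions. The median difference was 1.32 over the 9 partner genes and 0.50 over all genes. The largest differences were 2.49 ± 0.47 for Hepacam (limma, adjusted p = 0.00085), 2.25 ± 0.57 for Mlc1 (0.00822) and 2.24 ± 0.69 for Nkain4 (0.0240). Hepacam and Mlc1 form an adhesion complex of astrocyte endfeet. Of 9 sodium-coupled transport genes, which use or share the gradient the pump makes, 5 were higher and none lower, with a median difference of 1.83 over the 9, led by the GABA transporter gene Slc6a11, at 3.67 ± 0.44 (adjusted p = 1.31e-05), the glutamate transporter gene Slc1a3, at 2.93 ± 0.33 (1.31e-05), and the glutamine transporter gene Slc38a3, at 2.44 ± 0.47 (0.00107). In C, 3 of 9 partner genes were higher, Mlc1 by 2.38 ± 0.58, Hepacam by 1.51 ± 0.47 and Ank2, an ankyrin gene, by 1.35 ± 0.35 (limma, adjusted p between 0.0185 and 0.0487), where 7.51% of all genes were higher. The median difference in C was 0.52 over the partner genes, 1.12 over the transport genes and 0.39 over all genes. In C, 4 of 9 transport genes were higher, led by Slc1a2 at 1.70 ± 0.37, Slc6a11 at 1.60 ± 0.45 and Slc1a3 at 1.53 ± 0.34 (limma, adjusted p between 0.0148 and 0.0325). In E, 6 of 9 partner genes were lower, led by Mlc1 at -2.71 ± 0.58, Agrn at -2.25 ± 0.38 and Nkain4 at -1.99 ± 0.70, and 6 of 9 transport genes were lower, led by Slc6a11 at -2.16 ± 0.45, Slc38a3 at -2.11 ± 0.48 and Slc1a3 at -1.58 ± 0.34. In E 42.5% of all genes were lower, and the median difference was -1.61 over the partner genes, -1.04 over the transport genes and -0.66 over all genes. In B, where 15.8% of all genes were called, 1 of 9 transport genes was higher, Slc6a11 by 1.46 ± 0.45. Of all genes, 3.73% were called in olfactory bulb minus cortex, 5.19% in brainstem minus olfactory bulb and 1.75% in brainstem minus cortex. Between regions, the caveolin gene Cav1 was the 1 of 9 partner genes called, at 1.79 ± 0.47 for olfactory bulb minus cortex and -1.63 ± 0.47 for brainstem minus olfactory bulb. Slc1a2 was lower in both other regions than in the cortex, at -1.66 ± 0.37 for olfactory bulb minus cortex and -1.80 ± 0.37 for brainstem minus cortex, and Slc1a3 at -1.26 ± 0.33 for brainstem minus cortex.

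The genes whose levels most resembled each of the 6 were taken as the 3 with the highest Pearson r over the 18 group means, which share the scale of their libraries. For Atp1b2 they were Pygm (0.96), Aqp4 (0.96) and Gpr37l1 (0.95), and Aqp4 and Gpr37l1 stand in the astrocyte list. For Fxyd1 they were Atp6ap1 (0.97), Tmem9b (0.97) and Rnf5 (0.95). For Fxyd6 they were Aqp1 (0.93), Nkd2 (0.93) and Tspan18 (0.93). These stayed among the 15 most alike after quantile normalization. For Atp1b1 they were Pacsin2 (0.94), Setbp1 (0.93) and Pja2 (0.93), of which Setbp1 and Pja2 fell to ranks 1583 and 1857 after quantile normalization. For Atp1b3 they were Vamp4 (0.90), Vps35l (0.88) and Mrfap1 (0.87), and for Fxyd7 Hbb-bt (0.90), Fam107b (0.86) and Drd2 (0.85). Among the 6 genes themselves, Atp1b2 and Fxyd1 had the highest r on the deposited scale (0.81), and 0.49 after quantile normalization. On that normalized scale Atp1b3 and Fxyd7 (0.65) and Atp1b1 and Fxyd6 (0.55) stood above them.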

How the data were processed

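Total RNA was amplified with random and poly d(T) primers, per the labels' protocols, and sequenced without strand information. The authors deposited 1 table per library with transcript FPKM, its interval and coverage; the submitters' processing notes name bcl2fastq 1.8.3, TopHat, Cufflinks and mm10, with no roles. Coverage, the mean read depth over a transcript as deposited by the authors, served only to compare depth.

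Of 63241 transcripts, 52543 (83.1%) were assigned to a gene of GENCODE M21 by shared span (at least 0.5, with a lead of 0.1), holding 89.5% to 96.7% of nuclear FPKM, and FPKM was summed per gene. Read counts were not used here, so no counting intervals are given. Genes with at least 1 FPKM in at least 2 libraries (13578) were tested as log2(FPKM + 1), which understates the change of low genes, with limma 3.58.1 in R 4.3.3: 18 group means, moderated tests with an intensity trend, 18 residual degrees of freedom, Benjamini-Hochberg adjustment over all genes, called at an adjusted p under 0.05. The fit was tested on simulated data. The 6 genes and all gene lists were chosen with earlier results of these data known. All 6 genes were named in every comparison of groups, with each other pump and FXYD gene tested, the 3 largest called changes per direction of the other lists, and the 3 genes most like each of the 6. Alternatives covered scaling, pseudocount (0.1), filters, weights, the number series in the library titles, transcript choice and left-out libraries. A few genes of the lists are not reported here.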

Additional observations from a re-analysis of the deposited data

Results flagged for a closer look

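Of 54 sets of 6 or 10 libraries, 6 held a library far from the rest, judged by its gap to the nearest other library as a share of the range. The limits used flag about 1 in 20 sets of values drawn from a single normal distribution. These sets mix regions or populations and share libraries, so that rate need not hold for them. In olfactory bulb E replicate 1, a library of low depth, Atp1b1 was at 13.9 FPKM and Fxyd1 at 2.63 FPKM, where the nearest of the 10 olfactory bulb libraries of A to E had 36.7 and 29.0 FPKM. Fxyd1 was listed at 0 in cortex D replicate 2, against 54.7 FPKM in the nearest D library. Fxyd6 was at 20.2 FPKM in brainstem D replicate 2, against 3.61 FPKM in the nearest brainstem library of A to E. Atp1b3 was at 34.6 FPKM in cortex B replicate 2, against 19.5 FPKM in the nearest B library. Fxyd7 was at 10.4 FPKM in brainstem A replicate 1, against 2.20 FPKM in the nearest A library.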

How the results depend on the processing

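The calls of Atp1b2 for A to E minus Neg (1.44 to 3.23 over 12 other settings) and of Fxyd6 for both comparisons with the olfactory bulb held under all 12 settings and without each of the 36 libraries. For A to E minus Neg, 4 of the 6 genes were called, against 2 with FPKM rescaled to a sum of 1000000 (Fxyd6 and Atp1b1 lost), 1 without the 8 libraries under 5000 genes, 4 without brainstem D replicate 2 and cortex E replicate 2, and 2 to 4 without 1 library, the 2 being without cortex Neg replicate 2. For C, 1 was called, against 0 after rescaling, quantile normalization, a pseudocount of 0.1, no filter, the number series as a covariate, the first number series alone or without the 8 libraries under 5000 genes, 2 with a filter of 1 FPKM in 18 libraries or array quality weights, and 0 to 2 without 1 library. The 0 came without olfactory bulb C replicate 1 or any 1 of the 4 cortex and brainstem C libraries, and the 2 without cortex D replicate 1 or olfactory bulb E replicate 2. For E, 5 were called, against 1 after rescaling (Fxyd7), 1 after quantile normalization (Fxyd1), 0 with number series as a covariate, 2 without the 8 libraries under 5000 genes, and 5 to 6 without 1 library. For brainstem minus olfactory bulb, 1 was called, against 3 after rescaling (with Atp1b1 and Atp1b2) and 2 after quantile normalization or without the 8 libraries under 5000 genes (with Atp1b2) or with the first number series alone (with Fxyd7). For B, 0 were called, and 0 to 1 without 1 library, the 1 being without cortex D replicate 1 or olfactory bulb E replicate 2.

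The sign of Atp1b3 for A to E minus Neg turned to -0.43 after rescaling, -0.42 after quantile normalization and -0.29 without the 8 libraries under 5000 genes. Counting all transcripts within its span, a choice made after seeing the data, gave 1.17 (limma, adjusted p = 0.0336). The sign of Fxyd7 turned to 0.59 with the transcript of highest mean FPKM, 0.74 with number series as a covariate and 0.58 with the first number series alone, and ran from -0.37 to 0.25 without 1 library. Atp1b1 in E turned to 0.092 after rescaling. The causes were not tested. D and E could not be compared in the first number series alone, which lacks them, and Fxyd7 did not pass the filter of 18 libraries. No paired analysis was possible because the labels carry no replicate numbers, and those used here only name libraries. Depth was low in 2 of the 6 E libraries, and a level of 0 is only the listed value.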
